A study of Mus musculus with 6 samples.

Results

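Endothelial genes, here genes that mark the lining cells of blood and lymphatic vessels or act on them, were compared between normal lung and lung tumours of the mouse. The set held 49 gene names, grouped as general endothelial, capillary, arterial, venous, lymphatic and transcription factor genes. A gene was taken where its name matched a row of the count table exactly, which found 48 of the 49 among 33924 rows: 23 general, 8 capillary, 3 arterial, 6 venous, 4 lymphatic and 4 transcription factor genes. The remaining name, Rgcc, was found only under its older name, 1190002H23Rik, and is given apart and in no count. RNA was sequenced from FVB/NJ mice, an inbred strain, given saline or urethane, a chemical carcinogen, at 1 g per kg by intraperitoneal injection. Tissue was harvested at 6 months. The 3 control lung libraries, replicates 1, 2 and 3, are labelled as normal lung, and the 3 tumour libraries, replicates 1, 2 and 4, as urethane-induced tumour. No genotype or transgene is named for either group. The labels name no age of the mice beyond the harvest time, do not say how tumour was cut from lung, and do not say that each library came from its own mouse, so p-values measure the spread between libraries, which may be technical in part.

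Endothelial cells are joined to each other by cadherin and other adhesion proteins, and their identity is kept by transcription factors of the ETS, SOX, GATA and KLF families. Their growth and quiescence are set by paired systems of ligand and receptor, among them VEGF, angiopoietin with Tie2, apelin with its receptor, and adrenomedullin with the Calcrl and Ramp2 receptor complex. The alveolar capillary bed of the mouse lung is made of a wide, thin cell called the aerocyte, which expresses Ednrb and Apln, and a general capillary cell, which expresses Aplnr, Gpihbp1 and Plvap. Arteries, veins and lymphatics carry their own genes, such as the connexins Gja4 and Gja5 in arteries, Vwf and the selectins in veins, and Prox1 and Lyve1 in lymphatics.

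Sequence upstream of the genes was searched for short words that these factor families can bind. RefSeq promoter entries (build GRCm38.p6) matched 28 of the 49 names, with 34 start sites, and the 250 bases before each start were read on both strands. The ETS word searched was CAGGAAG. The word for the SOX family was ACAAAGG and that for the KLF family GGGTGTGG, and for the family that Gata2 belongs to it was AGATAAG. The ETS word was in 8 of the 34 windows (23.5%), compared with 10.8% of 32851 windows of the same length over all genes. For the SOX word the shares were 11.8% (4 windows) and 5.08%, and for the KLF word 5.88% (2 windows) and 3.2%. No window of these genes held the GATA word, which 2.74% of all windows held. Windows from several starts of 1 gene are not independent, and a match is a run of letters and no evidence of binding. The windows of 3 genes are printed 5′ to 3′ on the gene's strand, with the matched word or its reverse complement in capitals, because they belong to a gene with one of the largest falls (Calcrl, chr2:84425267-84425516, minus strand), to the gene that rose (Apln, chrX:48034854-48035103, minus strand) and to a general gene used as a reference (Tie1, chr4:118489850-118490099, minus strand). Calcrl carries an ETS word, Apln a SOX and an ETS word that do not overlap, and Tie1 a KLF word. Gata2 and Clec14a, which also have windows, fell more than Calcrl (log2 fold changes -5.07, -4.94 and -4.83). No window of Gata2 held any word searched, and that of Clec14a held a KLF word only.
Calcrl: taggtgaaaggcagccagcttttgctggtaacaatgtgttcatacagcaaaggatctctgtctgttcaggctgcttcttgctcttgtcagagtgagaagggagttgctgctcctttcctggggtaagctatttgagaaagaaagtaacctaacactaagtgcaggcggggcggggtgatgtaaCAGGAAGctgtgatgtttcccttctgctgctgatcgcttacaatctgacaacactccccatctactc
Apln: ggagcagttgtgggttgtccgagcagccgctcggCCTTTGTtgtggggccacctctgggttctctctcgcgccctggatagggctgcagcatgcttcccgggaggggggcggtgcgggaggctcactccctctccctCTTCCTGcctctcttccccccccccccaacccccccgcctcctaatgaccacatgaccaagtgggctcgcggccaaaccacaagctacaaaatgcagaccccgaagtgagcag
Tie1: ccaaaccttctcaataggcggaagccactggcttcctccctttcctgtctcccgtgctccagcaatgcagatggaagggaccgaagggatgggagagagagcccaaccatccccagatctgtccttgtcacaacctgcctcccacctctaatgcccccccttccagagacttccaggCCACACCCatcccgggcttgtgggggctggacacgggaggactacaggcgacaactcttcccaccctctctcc

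Levels are CPM, read counts scaled to library size with TMM factors, and values are always in the order control replicates 1, 2 and 3, then tumour replicates 1, 2 and 4. Library totals were 38996532 to 62336537 counted reads, so that 3 reads made 0.0456 to 0.0815 CPM. Tumour replicate 2 stood apart in sex-linked genes, with 3360 CPM of Xist against 5.82 to 32.9 CPM elsewhere. Its highest value for a Y-linked gene, of 4 examined, was 0.216 CPM, below the lowest value of any other library (37.6 CPM). By these genes tumour replicate 2 reads as female and the other libraries as male, though the labels give no sex. Sex thus differs within the tumour group, and its part in the results was not tested. Apln, Bmx and Tspan7 lie on the X chromosome. Control replicate 2 had the most heart muscle RNA (a sum of 1723 CPM over 12 genes, and 359 and 610 CPM in the other controls).

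Nearly the whole endothelial set was lower in the tumours. All 48 genes passed the filter on low counts, 42 were lower, 1 was higher (Apln) and 5 did not pass (Nos3, Bmx, Selp, Vcam1 and Icam1), at an adjusted p under 0.05 in edgeR's quasi-likelihood test. Over all 20001 genes tested, 23.8% were lower and 18.1% higher by the same rule. The median log2 fold change of the 48 was -3.12, a level 8.69-fold lower, compared with 0.01 over all genes, and 8.37% of all genes lay below that median. In 41 of the 48 the fall was called and at least 2-fold, which held for 20.1% of all genes. Control and tumour levels were apart, with no overlap, for 43 of the 48 and for 56.0% of all genes. Summed over the 48 genes, the level was 8533, 10972.5 and 10033 CPM in control lung and 1132.5, 1312 and 978 CPM in tumours. Without tumour replicate 2, 43 of the genes were lower and 1 was higher, and without control replicate 2 the counts were 40 and 1. In bulk tissue, fewer endothelial cells and less RNA of these genes per cell cannot be told apart.

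**Figure D1:**
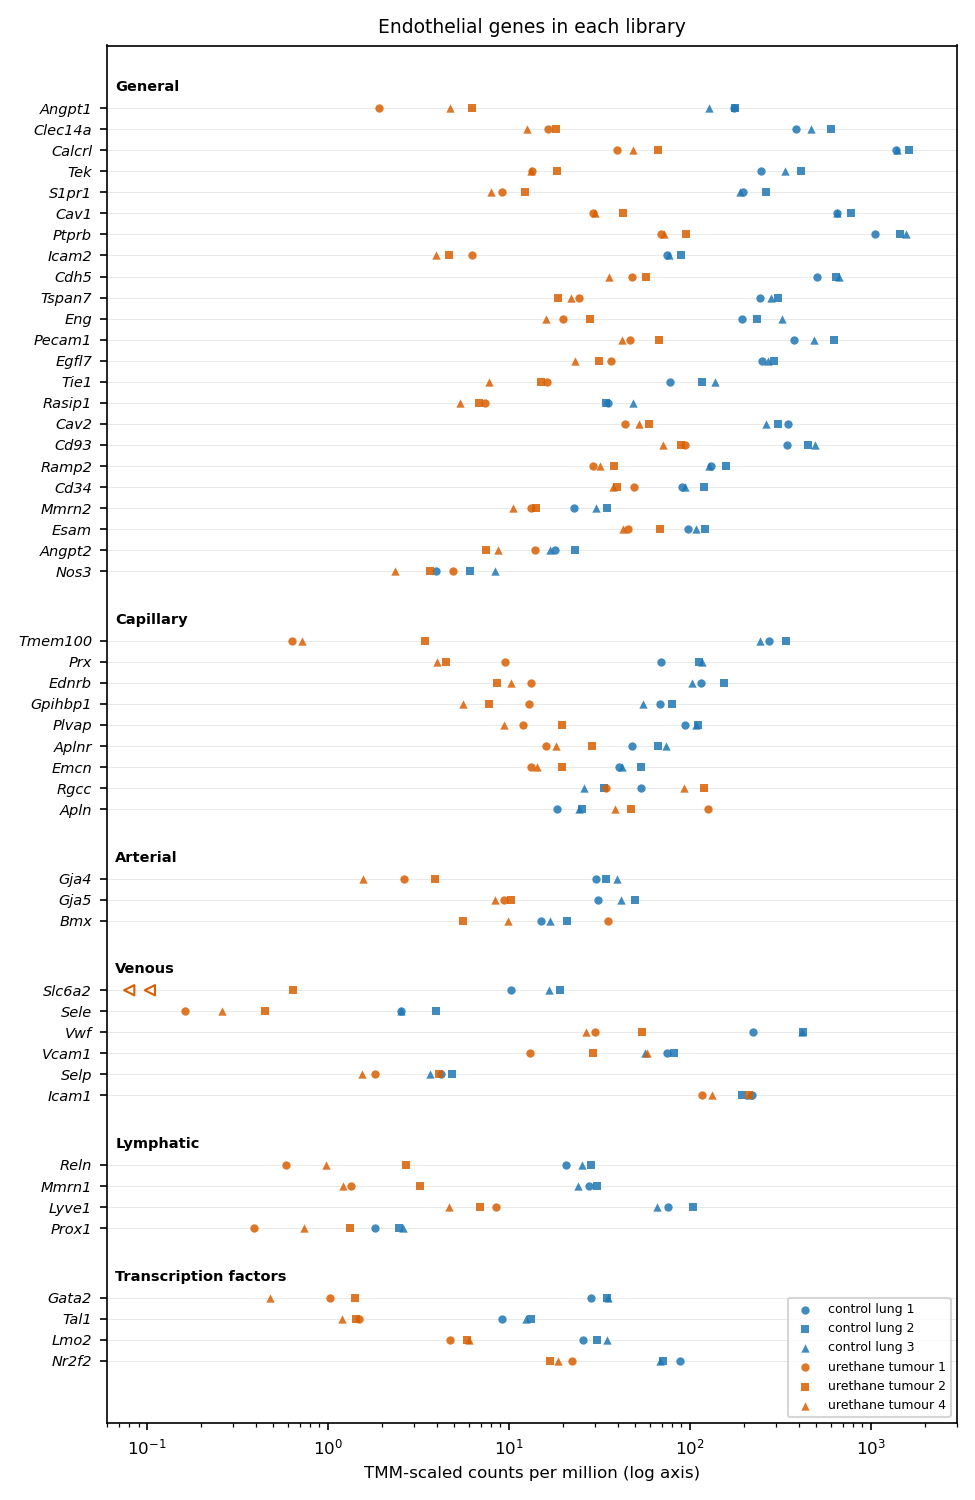
Level of each endothelial gene in each library, in TMM-scaled CPM on a log axis; blue marks are control lungs, orange marks tumours, and shapes are replicates. The 2 open triangles on the Slc6a2 line are tumour libraries with 0 reads, drawn at the left edge; Rgcc, listed under an older name, is shown but not counted. Of the 48 counted genes, 43 have no overlap between blue and orange marks.

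Junction and adhesion genes of the general group fell by very unequal amounts. Cdh5, the gene of VE-cadherin, on which endothelial junctions are built, had 504, 642 and 671 CPM in control lung and 48, 57.3 and 35.7 CPM in tumours. Pecam1, encoding the CD31 adhesion molecule, had 377, 629 and 488 CPM, then 46.8, 67.3 and 42.0 CPM. Esam, another endothelial adhesion molecule, had 98.0, 122 and 109 CPM, then 45.6, 68.6 and 42.5 CPM. For each of these genes every tumour lay below every control, and tumour replicate 2 was the highest tumour. The log2 fold changes were -3.69 ± 0.24 (SE) for Cdh5, -3.26 ± 0.27 for Pecam1 and -1.07 ± 0.21 for Esam (edgeR adjusted p = 2.22e-05, 6.07e-05 and 0.004). Icam2, a ligand of leukocyte integrins, fell by 4.01 ± 0.21, and Rasip1, needed to form the vessel lumen, by 2.60 ± 0.21. Of the exon bases of Rasip1, 27.4% lie in exons of other names, and 18.7% of its 32-base words occur in another gene. Cd34, a sialomucin of vessels and blood progenitors, had 90.4, 120 and 94.0 CPM, then 49.5, 39.6 and 37.7 CPM. It fell by 1.26 ± 0.18 on the log2 scale (edgeR adjusted p = 0.000746). No Cd34 value of a tumour reached the lowest control.

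The angiopoietin system, in which the ligand Angpt1 activates the receptor Tek (Tie2) and Angpt2 acts in a context-dependent way against it, showed the largest and nearly the smallest fall of the general group. Angpt1, made mostly by cells around vessels, had 176, 179 and 129 CPM in control lung and 1.91, 6.25 and 4.73 CPM in tumours. Angpt2, released by endothelial cells themselves, had 17.9, 23.3 and 17.0 CPM, then 13.9, 7.51 and 8.74 CPM. Angpt1 was thus far below every control in each tumour, while the highest Angpt2 value of the tumours, in replicate 1, was close to the lowest control. The log2 fold change of Angpt1 was -5.23 ± 0.44 (edgeR adjusted p = 6.11e-05) and that of Angpt2 -0.95 ± 0.26 (edgeR adjusted p = 0.0204). The call for Angpt2 was lost without control replicate 2 (adjusted p = 0.0875) and without tumour replicates 2 and 4 (0.054 and 0.0674), each left out alone. Tek fell by 4.47 ± 0.26. Tie1, its orphan partner receptor, had 78.2, 117 and 139 CPM, then 16.2, 15.1 and 7.77 CPM, with no overlap, and fell by 3.09 ± 0.33 on the log2 scale. Ptprb, the VE-PTP phosphatase that acts on Tek, was among the most abundant of the set in control lung, with 1055, 1447 and 1563 CPM against 69.0, 95.9 and 72.0 CPM in tumours, and fell by 4.10 ± 0.25.

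Receptors of the adrenomedullin and sphingosine phosphate systems fell steeply. Calcrl, the receptor for adrenomedullin and calcitonin gene-related peptide, had 1379.5, 1635 and 1400 CPM in control lung and 39.8, 66.5 and 48.4 CPM in tumours. The groups were far apart, and the log2 fold change was -4.83 ± 0.26 (edgeR adjusted p = 1.39e-05). Ramp2, the accessory protein that gives Calcrl its affinity for adrenomedullin, had a smaller log2 fold change, -2.07 ± 0.17. Its counts are uncertain, since 33.4% of its exon bases lie in exons of Vps25 and 74.1% of its 32-base words occur in another gene. S1pr1, a receptor that stabilises the endothelial barrier, fell by 4.46 ± 0.24. Clec14a, a lectin of the vessel surface, fell by 4.94 ± 0.26, and Cd93, a related lectin, by 2.33 ± 0.20. Eng, a co-receptor for BMP9, fell by 3.56 ± 0.28, and Egfl7, a secreted vessel protein and host of a microRNA, by 3.15 ± 0.21, with 11.2% of its exon bases in exons of other names.

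The remaining general genes included Nos3, with the smallest change of the group. Cav1, the main coat protein of caveolae, which alveolar type 1 cells also express, fell by 4.35 ± 0.23, and its partner Cav2 by 2.56 ± 0.19. The tetraspanin Tspan7 fell by 3.67 ± 0.18. Mmrn2, a matrix protein that binds Clec14a and Cd93, had 23, 35.1 and 30.5 CPM in control lung and 13.2, 14.1 and 10.6 CPM in tumours. It fell by 1.22 ± 0.21 (edgeR adjusted p = 0.00192) without overlap. Nos3, the endothelial nitric oxide synthase, had 3.97, 6.11 and 8.37 CPM, then 4.90, 3.68 and 2.37 CPM. The Nos3 groups overlapped, and its log2 fold change of -0.75 ± 0.37 did not pass (edgeR adjusted p = 0.137, and 0.0476 without tumour replicate 1). For Nos3, 32.3% of exon bases lie in exons of Atg9b and a second name, so that its counts can include their reads. The 23 general genes had a median log2 fold change of -3.26, and 22 of them were lower.

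**Figure D2:**
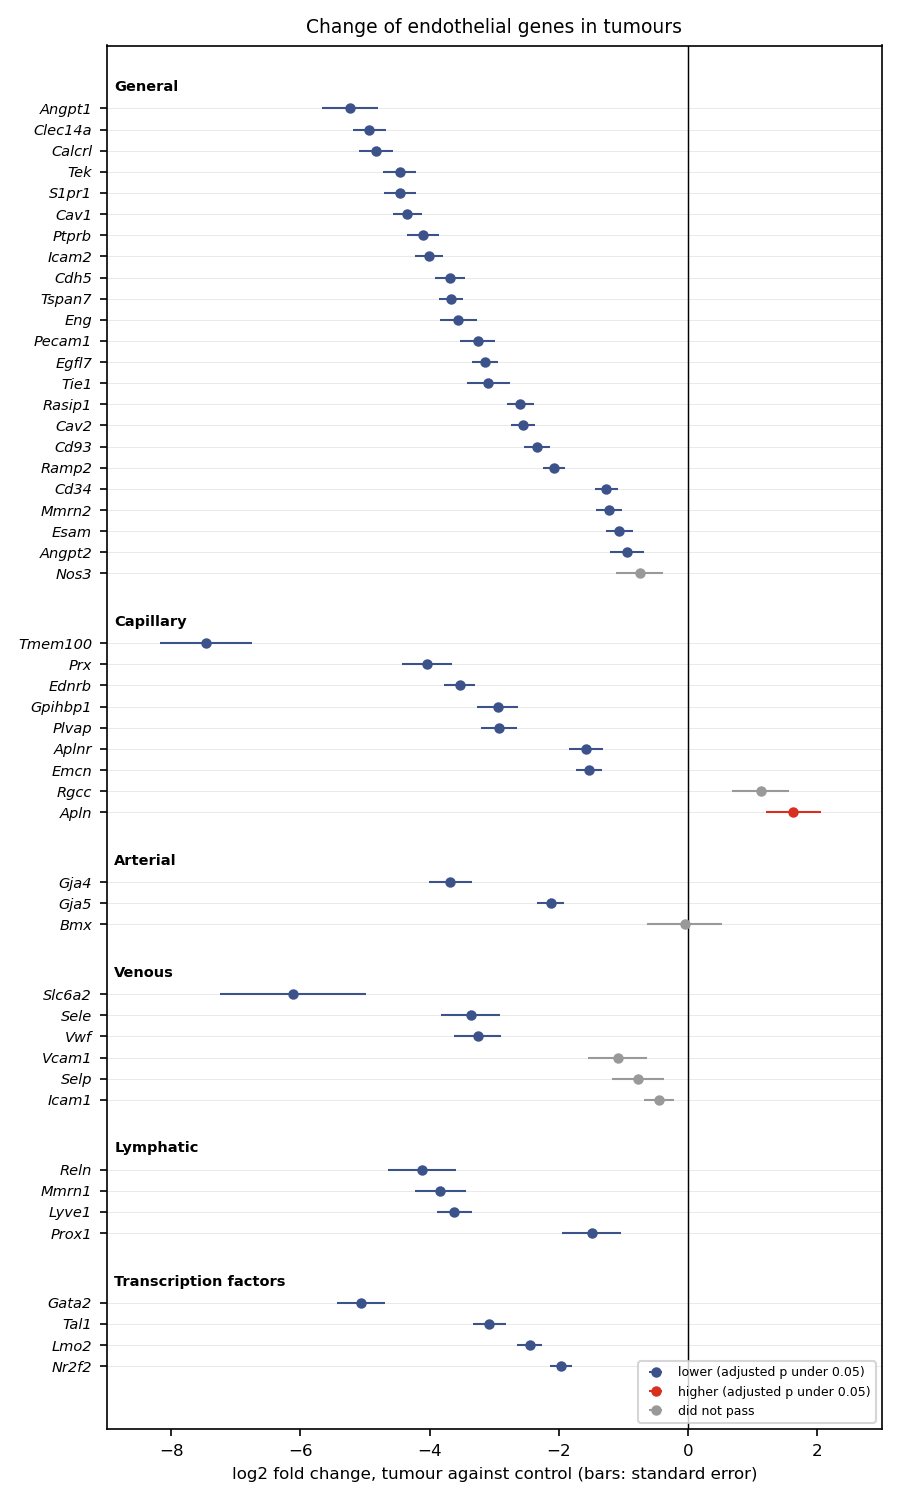
Log2 fold change of tumour against control for each endothelial gene, with bars of 1 standard error; blue is lower and red higher at an adjusted p under 0.05, and grey did not pass. Changes run from -7.46 for Tmem100 to 1.63 for Apln, and each group but the lymphatic and transcription factor genes has a grey or red point.

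The capillary genes held both the largest fall and the rise of the set. Tmem100, a membrane protein induced by BMP9 signalling in arterial and capillary endothelium (mm9 chr11:89891662-89897822, plus strand), had 273, 338 and 243 CPM in control lung and 0.638, 3.47 and 0.716 CPM in tumours. Every tumour was far below every control, and tumour replicate 2 was the highest of the tumours. Its log2 fold change was -7.46 ± 0.71 (edgeR adjusted p = 0.000113), and -8.71 without tumour replicate 2. On a scale per length, CPM per kilobase of exon, Tmem100 ranked 3rd of the 48 genes in control lung (161) and 39th in tumours (0.909). Prx, the cytoskeletal protein periaxin, fell by 4.04 ± 0.39.

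Apln, the gene of the peptide ligand apelin (mm9 chrX:45378323-45388030, minus strand), had 18.6, 25.2 and 24.6 CPM in control lung and 126, 47.5 and 38.6 CPM in tumours. The groups did not overlap, and tumour replicate 1 was well above the other tumours. The log2 fold change was 1.63 ± 0.42 (edgeR adjusted p = 0.0151), and 0.95 without tumour replicate 1 (adjusted p = 0.00198). The call was lost without control replicate 1 (adjusted p = 0.0594), without control replicate 3 (0.0569) and in the test against a 2-fold change (0.126). Aplnr, the apelin receptor, had 47.9, 67.1 and 74.1 CPM, then 16, 28.9 and 18.2 CPM, and fell by 1.58 ± 0.26 (edgeR adjusted p = 0.00177) with no overlap. Ligand and receptor thus moved in opposite directions in the same libraries.

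Among the other capillary genes, the aerocyte gene Ednrb, an endothelin receptor, fell by 3.53 ± 0.24. The general capillary genes Gpihbp1, which holds lipoprotein lipase at the capillary wall, and Plvap, which builds the diaphragms of fenestrae and caveolae, fell by 2.95 ± 0.32 and 2.93 ± 0.28. Ednrb, Gpihbp1, Plvap and Aplnr, which mark the alveolar capillary cells, were thus lower, whereas Apln was higher. Emcn, a sialomucin of capillaries and veins, had 40.9, 53.7 and 42.2 CPM, then 13.2, 19.8 and 14.3 CPM, and fell by 1.53 ± 0.20 (edgeR adjusted p = 0.00058) without overlap. Rgcc, a cell cycle regulator used as a general capillary marker and listed here under its older name, had 53.6, 33.6 and 26.0 CPM, then 34.4, 120 and 92.6 CPM. Its groups overlapped, and its log2 fold change of 1.12 ± 0.44 did not pass in edgeR (adjusted p = 0.0736) but did in DESeq2 (0.0289) and, in edgeR, without tumour replicate 1 (1.52, adjusted p = 0.00266). The 8 counted capillary genes had a median log2 fold change of -2.94, with 7 lower and 1 higher.

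Of the 3 arterial genes, the connexins fell and Bmx did not pass. Gja4, the gap junction protein connexin 37, had 30.3, 34.6 and 39.6 CPM in control lung and 2.65, 3.90 and 1.56 CPM in tumours, and Gja5, connexin 40, had 31.0, 49.9 and 41.9 CPM, then 9.47, 10.3 and 8.35 CPM. Neither had an overlap between groups. Their log2 fold changes were -3.68 ± 0.33 and -2.13 ± 0.21 (edgeR adjusted p = 8.34e-05 and 0.000131), with 21.9% of the 32-base words of Gja5 found in another gene. Bmx, a cytoplasmic tyrosine kinase of arterial endothelium that other cells also express, had 15.0, 21.0 and 16.9 CPM, then 35.4, 5.62 and 9.94 CPM. Tumour replicate 1 was above every control and the other tumours were below every control. The log2 fold change of Bmx was -0.05 ± 0.58 (edgeR adjusted p = 0.951) with all libraries and -1.15 without tumour replicate 1 (adjusted p = 0.0065). Apln and Bmx both had their highest tumour value in replicate 1.

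Among the venous genes, Slc6a2, Vwf and Sele had large falls, and Selp, Vcam1 and Icam1 did not pass with all libraries. Slc6a2, the noradrenaline transporter, which lung veins express (mm9 chr8:95483978-95525566, plus strand), had 10.3, 19.1 and 16.7 CPM in control lung and 0, 0.647 and 0 CPM in tumours. All 36 tumour reads, against 2458 in controls, were in tumour replicate 2. The log2 fold change was -6.12 ± 1.13 (edgeR adjusted p = 0.00307). Without that library no tumour read was left, and Slc6a2 was at least 579-fold lower, set against a floor of 3 reads over the group. Vwf, the von Willebrand clotting factor, had 225, 421 and 416 CPM, then 29.9, 54.5 and 26.6 CPM, without overlap, and fell by 3.26 ± 0.36 (edgeR adjusted p = 0.000233).

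The selectins and immunoglobulin adhesion molecules bring leukocytes to the vessel wall and are induced by inflammatory signals. Sele, E-selectin, was low throughout, with 2.55, 3.95 and 2.54 CPM, then 0.163, 0.449 and 0.26 CPM, and fell by 3.37 ± 0.45 without overlap. Selp, P-selectin, which platelets also carry, had 4.24, 4.88 and 3.68 CPM, then 1.81, 4.11 and 1.54 CPM. Tumour replicate 2 lay within the range of the controls, and the log2 fold change of -0.78 ± 0.40 did not pass (edgeR adjusted p = 0.158), but was -1.34 without that library (0.0114). Vcam1, a ligand of the integrin of lymphocytes and monocytes, had 75.4, 81.5 and 56.6 CPM, then 13.2, 29.2 and 57.8 CPM. Tumour replicate 4 overlapped the controls, and the log2 fold change of -1.09 ± 0.45 did not pass (edgeR adjusted p = 0.0883), but was -1.74 without that library (0.00785). Vcam1 passed in DESeq2 (0.0382), in limma-voom (0.0386) and in edgeR with scaling by total counts (0.0428). Icam1, which alveolar type 1 cells also express, had 222, 194 and 214 CPM, then 116, 212 and 133 CPM, with tumour replicate 2 among the controls. Its log2 fold change of -0.45 ± 0.23 did not pass (edgeR adjusted p = 0.157) and was -0.74 without tumour replicate 2 (0.0131). Of the exon bases of Icam1, 19.3% lie in exons of Mir1900, and of those of Selp, 14.1% in exons of other names. The 6 venous genes had a median log2 fold change of -2.17, with 3 lower. Without tumour replicate 2, 5 were lower.

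All 4 lymphatic genes fell. Lyve1, a hyaluronan receptor of lymphatic endothelium and some macrophages, had 76.3, 105 and 66.4 CPM in control lung and 8.49, 6.97 and 4.69 CPM in tumours, and fell by 3.62 ± 0.28. Reln, the extracellular protein reelin, had 20.6, 28.6 and 25.3 CPM, then 0.589, 2.71 and 0.976 CPM, and Mmrn1, a multimerin of lymphatics and platelets, 27.9, 30.9 and 24.2 CPM, then 1.34, 3.25 and 1.22 CPM. Neither overlapped, and in both tumour replicate 2 was the highest tumour. Their log2 fold changes were -4.12 ± 0.53 and -3.83 ± 0.39 (edgeR adjusted p = 0.000482 and 0.000159), and without tumour replicate 2 they were -4.99 and -4.43. Prox1, the transcription factor that sets lymphatic identity, was the least abundant, with 1.82, 2.48 and 2.62 CPM, then 0.392, 1.33 and 0.738 CPM. Prox1 had a log2 fold change of -1.49 ± 0.46 (edgeR adjusted p = 0.0313), a call kept when tumour replicates 1 or 2 were left out and lost for each other library (adjusted p up to 0.11). The median of the lymphatic genes was -3.72.

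The transcription factors of the set also all fell. Gata2, which acts in endothelial, mast and blood progenitor cells (mm9 chr6:88143885-88157024, plus strand), had 28.6, 35.1 and 35.6 CPM in control lung and 1.03, 1.42 and 0.477 CPM in tumours. Nr2f2, COUP-TFII, which sets venous identity and is also made by mesenchymal cells, had 87.9, 70.8 and 68.8 CPM, then 22.3, 17.0 and 18.8 CPM. There was no overlap in either gene, and tumours were close to each other for Nr2f2. The log2 fold changes were -5.07 ± 0.37 for Gata2 and -1.97 ± 0.17 for Nr2f2 (edgeR adjusted p = 3.71e-05 and 7.45e-05). Tal1 and Lmo2, partners in a complex of blood and endothelial progenitors, fell by 3.08 ± 0.25 and 2.46 ± 0.19. The median of the 4 was -2.77.

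By these medians the falls ran from lymphatic (-3.72) and general (-3.26) over capillary (-2.94) and transcription factor (-2.77) to venous (-2.17) and arterial (-2.13) genes. The ranges within the groups were far wider than the distances between their medians, from -7.46 to 1.63 in the capillary and from -6.12 to -0.45 in the venous group, so the order is a description of these lists and was given no test. Within each library, the median log2 CPM of the general genes was 7.62, 8.04 and 8.05 in control lung and 4.62, 4.82 and 4.47 in tumours. That of the lymphatic genes was 4.59, 4.90 and 4.63, then -0.11, 1.59 and 0.17. The lymphatic median thus varied more among the tumours than the general one, with tumour replicate 2 highest in both. It is a median of 4 genes, of which Prox1 (24, 74 and 34) and Reln (36, 151 and 45) had few tumour reads. Prox1, Reln and Mmrn1 were highest in tumour replicate 2, and Lyve1 in tumour replicate 1.

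The order of levels within the set changed along with the total. Per kilobase of exon, the highest control means were those of Calcrl (301 CPM per kilobase), Cav1 (202), Tmem100 (161), Cdh5 (152) and Pecam1 (115). In tumours they were those of Icam1 (60.6), Apln (22.4), Esam (18.2), Cd34 (16.1) and Cav2 (15.6). Apln thus went from 37th to 2nd of the 48, Icam1 from 10th to 1st and Calcrl from 1st to 10th. At the low end, Prox1 (0.558), Selp (0.966) and Sele (1.04) were the lowest in control lung, and Slc6a2 (0.0349), Reln (0.0718) and Sele (0.0999) in tumours.

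To ask which genes changed more or less than general endothelial genes in the same libraries, each was set against the mean log2 CPM of Cdh5, Pecam1, Tie1 and Esam and tested with limma. The mean of these 4 reference genes was 7.92 ± 0.27 log2 CPM over the 3 control lungs and 5.13 ± 0.38 over the 3 tumours (SD), lower by a difference of -2.79. Of the other 44 genes, 16 fell more than the reference, 12 fell less or rose, and 16 did not pass. Over all 19997 genes tested this way, 4.91% fell more and 84.7% fell less or rose, since most genes did not fall. The counts turned on Esam, which fell by 1.07 whereas Cdh5, Pecam1 and Tie1 fell by 3.69, 3.26 and 3.09. With Esam alone as the reference, 31 genes fell more and 1 fell less or rose. With Cdh5, Pecam1 and Tie1, a reference chosen after the data were seen, the counts were 10 and 17. With the 4 reference genes and each library left out in turn, 13 to 16 genes fell more and 10 to 13 fell less or rose. The larger fall of Gja4 and of Tspan7 was lost in 5 of these 6 fits, and that of Mmrn1 in 2.

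Some calls were the same with each of 7 references tried (the 4 genes, each alone, those without Esam, and all general genes). These references share genes, so their agreement is not independent. Of the genes named below, Angpt1, Clec14a, Calcrl, S1pr1, Tek, Angpt2, Cd34, Mmrn2 and Nos3 are themselves part of the reference of all general genes. Shares over all genes are given above for the 4 reference genes only. A larger fall held for 8 genes (change relative to the 4 reference genes ± SE): Tmem100 (-5.07 ± 0.47), Slc6a2 (-4.43 ± 0.63), Angpt1 (-2.57 ± 0.45), Gata2 (-2.36 ± 0.40), Clec14a (-2.14 ± 0.39), Calcrl (-2.07 ± 0.40), S1pr1 (-1.67 ± 0.39) and Tek (-1.66 ± 0.39). They come from the general, capillary, venous and transcription factor groups. Slc6a2 had no reads in tumour replicates 1 and 4, so the size of its relative change depends on the prior count of 2. Angpt1 is made mostly by cells around vessels, as said above. Of the genes that fell less or rose, Apln, at 4.23 ± 0.44, was the 1 that passed with each reference. With every reference but Esam alone, 12 genes fell less or rose: Angpt2, Cd34, Mmrn2, Nos3, Apln, Aplnr, Emcn, Bmx, Icam1, Selp, Vcam1 and Prox1. Among these the relative change was 2.32 ± 0.52 for Bmx, 2.30 ± 0.40 for Icam1, 2.05 ± 0.40 for Nos3, 1.90 ± 0.41 for Selp, 1.81 ± 0.42 for Angpt2, 1.58 ± 0.39 for Mmrn2 and 1.53 ± 0.40 for Cd34. It was 1.47 ± 0.51 for Vcam1, 1.25 ± 0.39 for Emcn, 1.20 ± 0.43 for Prox1 and 1.19 ± 0.39 for Aplnr. With the 4 reference genes, the call was lost for Aplnr without control replicate 2 (limma adjusted p = 0.0505), for Emcn without control replicate 3 (0.0602), for Vcam1 without tumour replicate 4 (0.115), and for Prox1 without tumour replicate 2 (0.0566) or 4 (0.0532).

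**Figure D3:**
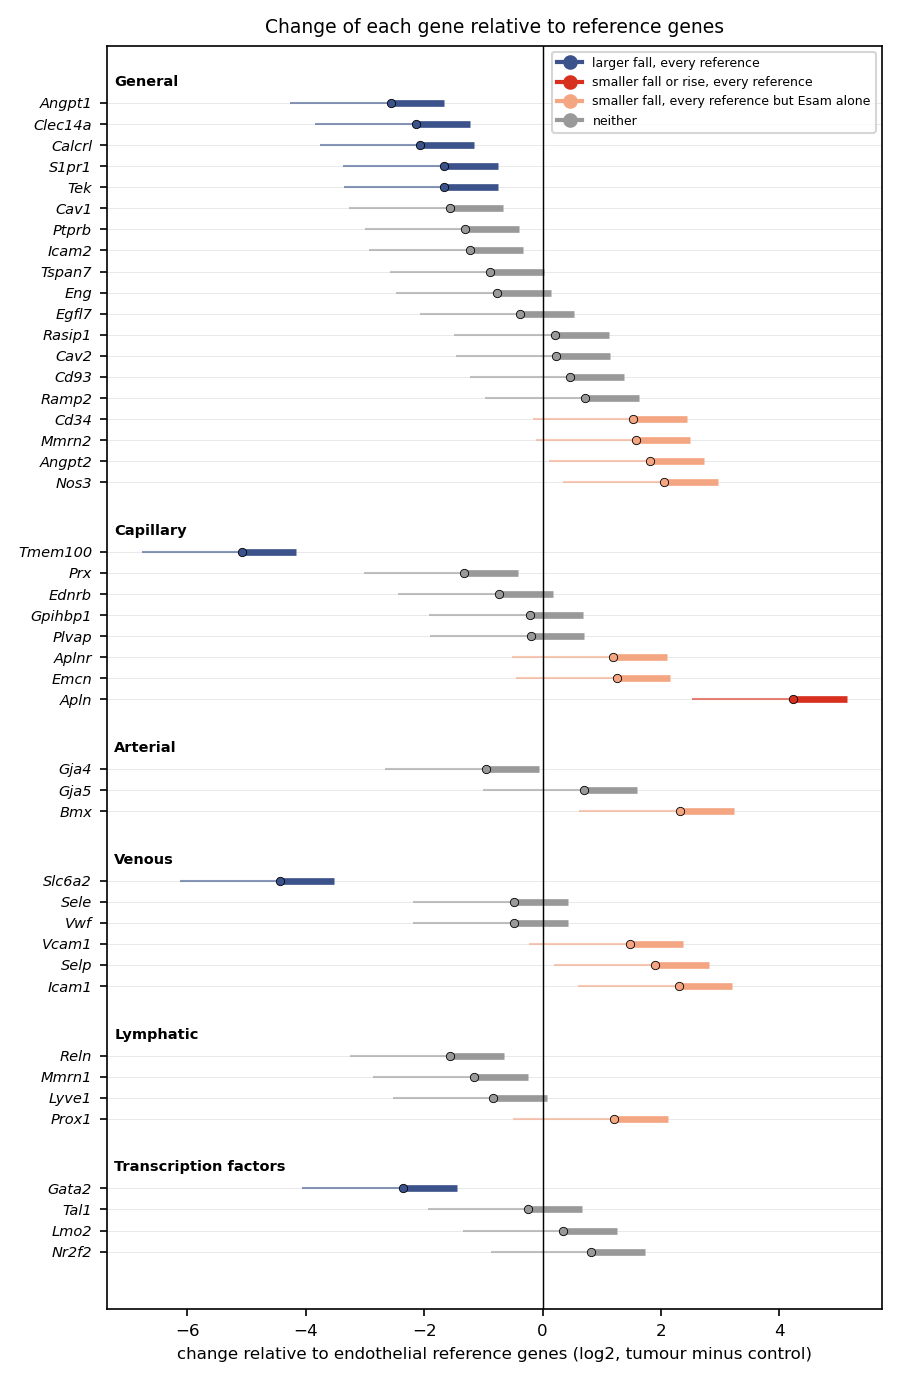
Change of 44 endothelial genes relative to reference genes, in log2 units, tumour minus control. Points use the mean of Cdh5, Pecam1, Tie1 and Esam; thick lines span the other references except Esam alone and thin lines add Esam alone. The 8 blue genes (larger fall) and red Apln (smaller fall or rise) passed with every reference, and the pale genes passed as a smaller fall with every reference but Esam alone.

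Ratios between 10 pairs of related genes were taken within each library as differences of log2 CPM, which are not corrected for length, so that only their difference between the groups is read. The log2 ratio of Angpt2 to Angpt1 was -3.29, -2.94 and -2.92 in control lung and 2.84, 0.26 and 0.88 in tumours, a difference of 4.38. Every tumour lay above every control, replicate 1 the most. For the apelin receptor over its ligand the values were 1.36, 1.41 and 1.59, then -2.97, -0.72 and -1.08, a difference of -3.04. For Calcrl over Ramp2 they were 3.39, 3.36 and 3.46, then 0.45, 0.80 and 0.59, a difference of -2.79, with the Ramp2 counts uncertain as above. In both pairs all tumours lay below all controls. Icam1 over Icam2 differed by 3.53, Prox1 over Lyve1 by 2.04, Cav2 over Cav1 by 1.80, Gja5 over Gja4 by 1.66, Tek over Tie1 by -1.33 and Mmrn1 over Mmrn2 by -2.74. These 9 pairs had no overlap between the groups, which for 3 against 3 libraries gives a two-sided exact permutation p = 0.1, the smallest possible, and 0.111 after Benjamini-Hochberg adjustment over the 10 pairs. No pair could therefore pass at 0.05. The pairs join genes that were themselves chosen with earlier results known. No share over pairs of other genes is given beside the 9, and of all single genes tested 56.0% had no overlap. Ednrb over Gpihbp1, an aerocyte gene over a general capillary gene, overlapped between the groups and differed by -0.52 (exact permutation p = 0.2, and 0.2 adjusted).

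**Figure D4:**
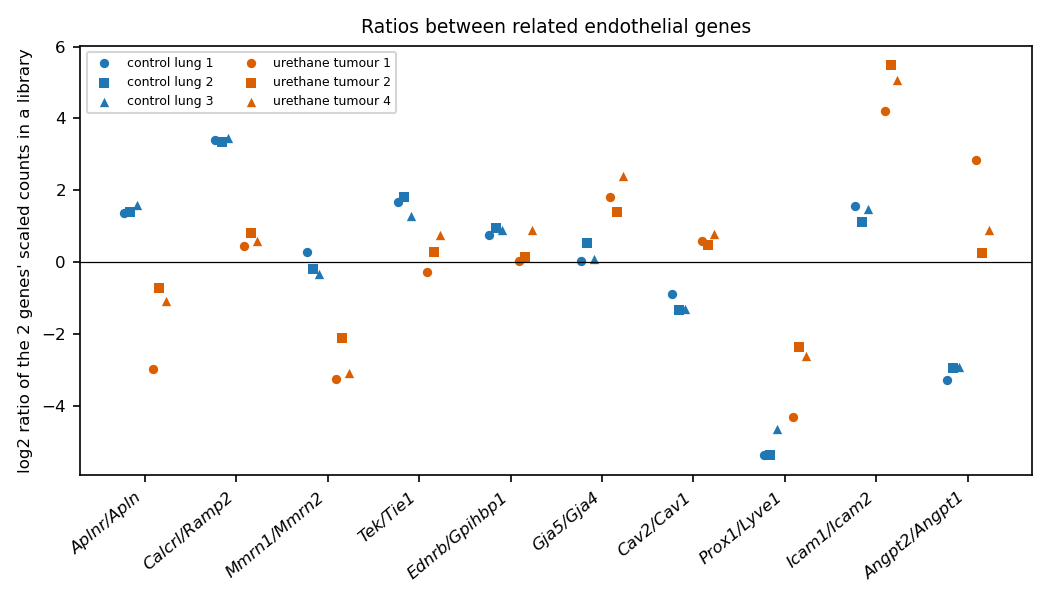
Log2 ratio of the scaled counts of 10 pairs of related endothelial genes in each library, sorted by the difference between groups; blue marks are control lungs, orange marks tumours. Control and tumour marks are apart for 9 pairs and overlap for Ednrb over Gpihbp1.

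Of 54 partner genes of these pathways, chosen as ligands, receptors, enzymes and transcription factors of endothelial cells, 53 were tested, 43 were lower, 1 was higher and 9 did not pass, with a median log2 fold change of -2.36. Over all genes tested, 23.8% were lower and 18.1% higher. Ccl21a, a lymphatic chemokine, had no read in any library. The 5 largest falls were those of Thbd, the anticoagulant thrombomodulin (-5.26 ± 0.26), Tbx3, a transcription factor of lung mesenchyme (-5.16 ± 0.33), Vegfd, a lymphatic growth factor listed as Figf (-5.01 ± 0.18), Cldn5, the endothelial tight junction claudin (-4.96 ± 0.38), and Edn1, the ligand of Ednrb (-4.61 ± 0.22). Ligand and receptor of that endothelin pair thus both fell. Hhex, a homeobox factor of endothelium and endoderm, had 12.1, 9.95 and 11.7 CPM in control lung and 67.9, 52.2 and 56.2 CPM in tumours. Every tumour was above every control, and its log2 fold change was 2.38 ± 0.17 (edgeR adjusted p = 3.23e-05). Without tumour replicate 1 a second partner gene, Lpl, was higher.

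The partner genes that did not pass included several with levels close to those of control lung. The co-receptor Nrp1 had a log2 fold change of -0.15 ± 0.22, the fatty acid receptor Cd36 of -0.32 ± 0.32 and Ly6c1 of -0.16 ± 0.25. Lpl, the lipase that Gpihbp1 holds, had 183, 145 and 102 CPM, then 56.5, 211 and 246 CPM, overlapping, with a log2 fold change of 0.25 ± 0.48. The arterial ligand Efnb2 had -0.65 ± 0.29 with all libraries and -1.07 without tumour replicate 1, where it passed (edgeR adjusted p = 0.00052). The protein C receptor Procr had a log2 fold change of 0.45 ± 0.30, the receptor accessory protein Ramp1 -0.55 ± 0.35, the venous chemokine receptor Ackr1 (listed as Darc) 0.43 ± 0.56 and the lymphatic and type 1 cell marker Pdpn 0.26 ± 0.17. Macrophages and epithelial cells are known to express some of these genes too.

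Markers of other cells that share endothelial genes were counted in the same way, and their part in the results was not tested. For these lists too, the shares over all genes tested were 23.8% lower and 18.1% higher. Of 12 platelet and megakaryocyte markers, cells that also carry Vwf, Selp, Mmrn1, Gata2 and Tal1, 11 were lower and 1 higher. Their summed level ran from 97.9 to 134 CPM in control lung and from 32.1 to 99.7 CPM in tumours, where Pf4 alone, the 1 higher, had 92.5, 25.6 and 60.5 CPM. Without Pf4 the sums were 92.3 to 126 and 6.41 to 7.18 CPM. Clec1b and Ppbp, the 2 most abundant in control lung, had log2 fold changes of -4.96 and -6.14. Of 10 mast cell and basophil markers, cells that carry Gata2, 7 were tested, with 5 lower (Kit, which capillary endothelium also expresses, by 4.07) and 1 higher (Hdc, 2.61). The number lower was 3 without control replicate 2. Fcer1a, Ms4a2 and Mcpt4 had 0 reads in each tumour and Tpsb2 none in any library. Their summed level was 211 to 232 CPM in control lung and 304 to 484 CPM in tumours, of which Hdc had 294, 468 and 342 CPM.

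Alveolar type 1 markers, 8 lower and 1 higher of 12, summed to 3712 to 4806 CPM in control lung and 1380 to 1889 CPM in tumours, with Clic5 at -2.26 and Emp2 at -2.22 the most abundant. None was higher without tumour replicate 2 or any 1 of the controls. Pericyte and smooth muscle markers, cells that make Angpt1, were lower in 11 and higher in 1 (Rgs5) of 12 and summed to 460 to 735 CPM and 237 to 275 CPM, with Pdgfrb at -1.10 and Myh11 at -5.12. Fibroblast markers were lower in 9 of 10 (2835 to 3152 CPM and 224 to 427 CPM), led by Inmt at -7.54 and Npnt at -3.83, and mesothelial markers in 7 of 8 (123 to 148 CPM and 41.1 to 59.3 CPM), with Krt19 at -0.19 and Gpm6a at -6.06. Macrophage markers, for cells that can express Lyve1, were lower in 1 and higher in 2 of 12, with sums of 2531 to 4891 CPM and 3307 to 10969 CPM. The most abundant of these were Lyz2 at 1.28 and Chil3 at 0.49, the latter not passing. The number higher was 4 without tumour replicate 1, and 1 without tumour replicate 2 or any 1 of the controls. The number lower was 0 without control replicate 3. All 12 cardiac muscle genes were lower, with sums of 359 to 1723 CPM and 36.2 to 57.1 CPM, led by Ttn at -4.72 and Myh6 at -3.02. Red cell genes were lower in 3 of 5 tested of 8, with Hbb-b1 at -3.61 and Hba-a1 at -3.95, and summed to 25.6 to 496 CPM and 17.8 to 32.2 CPM, highest in control replicate 2. The groups overlapped for both genes, and the number lower was 0 without control replicate 2, 0 without tumour replicate 4, and 1 without tumour replicate 2. Alveolar type 2 markers were higher in 9 of 10, led by Sftpc at 1.77 and Sftpa1 at 2.38. Their sums were 8496 to 13908 CPM in control lung and 24799 to 56591 CPM in tumours. Whether type 2 cells express any of the endothelial genes was not tested.

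**Figure D5:**
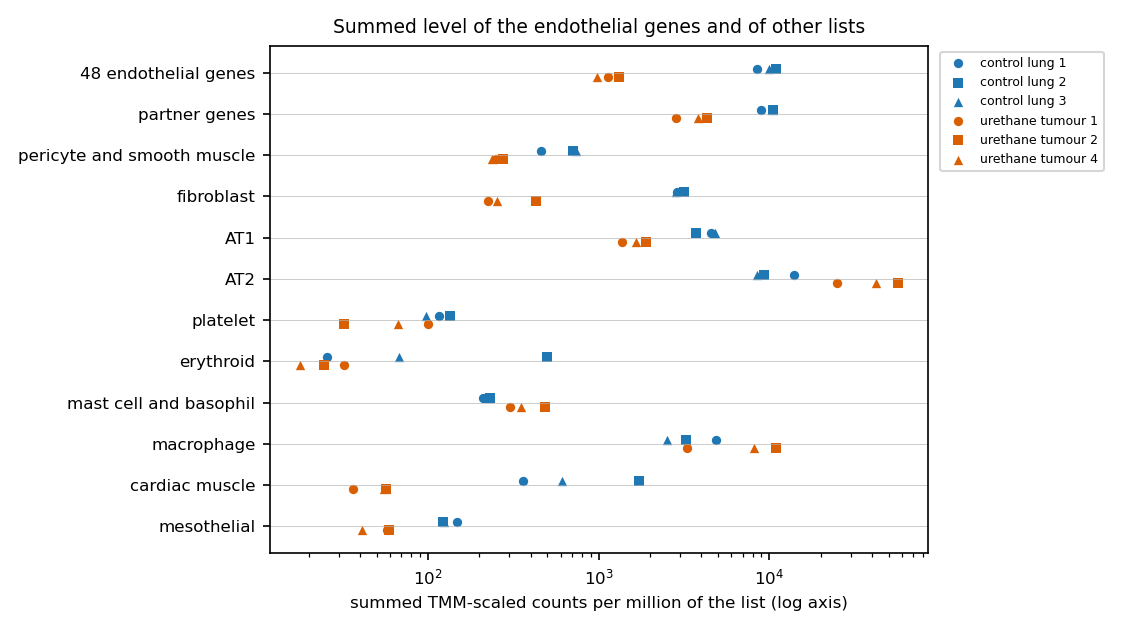
Summed TMM-scaled CPM of the 48 endothelial genes, the partner genes and 10 lists of markers of other cells in each library, on a log axis. The endothelial, partner, fibroblast and type 1 sums lie lower in every tumour than in every control, the type 2 sums higher, and the macrophage sums overlap.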

How the data were processed

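Total RNA of mouse lung or tumour was sequenced with Illumina libraries, per the labels' protocols. Values are raw counts of reads by gene name, which the authors made with featureCounts 1.6.5 over exons with GENCODE annotation M1, per the file headers. A read over several names counted for each, and no strand setting was given, per the same header. STAR, edgeR, limma, R 3.6.0 and the builds mm9 and GRCm38 are named in the submitters' processing notes, and gene coordinates here are those of mm9 as deposited. No version of the aligner is given.

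Genes were tested on the counts with edgeR 4.0.16 in R 4.3.3 (filterByExpr with a minimum count of 10, TMM scaling, quasi-likelihood F test, group as the only term, Benjamini-Hochberg adjustment over all genes, threshold 0.05). The change relative to 4 reference genes was tested with limma 3.58.1 on log2 CPM with a prior count of 2. Both were tested on simulated data. The SE of an edgeR log2 fold change was derived from its test, as the size of the change over the square root of F. For limma it was the size of the change over the t statistic. The alternatives tried were DESeq2 1.42.0, voom in limma, other scalings, no filter, a 2-fold test, a prior count of 0.5, other references, a replicate block and each library left out. The endothelial genes, groups, references and lists were chosen with earlier results of these data known. Every endothelial gene could be named. Values per library are given for the reference genes, genes that rose or did not pass, the largest and smallest change in each group and those with a smaller fall than the reference, with a few others added after their values were seen. In the partner list genes that rose or did not pass and the 5 largest falls are named, and in other lists the 2 genes highest in control lung plus, where a sentence turns on them, others seen to move. No 2 libraries of a group agreed within sampling noise (chi-square over degrees of freedom of 59.1 to 258). Gene overlap was counted in exon bases that fall in exons of a second name, and shared sequence in words of 32 bases of a transcript that also occur in a second gene.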

Additional observations from a re-analysis of the deposited data

How the results depend on the processing

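The endothelial genes lower in tumours numbered 37 to 44 of 48 under all alternatives run, and each group median stayed negative. Scaling by total counts moved the median of all genes from 0.01 to -0.10 on the log2 scale and gave 43 of them lower and 1 higher. Against a 2-fold change, 2909 genes were lower and 1056 higher, 37 endothelial genes were lower and 0 higher. Partner genes lower numbered 35 in that test. Replicate numbers 1 and 2 occur in both groups, but same-numbered libraries did not deviate together (correlations -0.18 and -0.01). With replicate numbers as a block, 2549 genes were lower and 1092 higher, and 39 endothelial genes were lower and 0 higher. Partner genes lower numbered 34 with the block. Control replicate 3 and tumour replicate 4 have no partner of the same number, so the block compares the groups through replicates 1 and 2 only. Esam, Mmrn2, Angpt2, Apln and Prox1 lost their call there (edgeR adjusted p = 0.0576, 0.0689, 0.172, 0.0622 and 0.167). Vcam1, whose highest tumour value was in replicate 4, gained a call (0.0195). With each library left out in turn, 40 to 44 endothelial genes were lower and 0 to 1 higher, 3 to 5 venous genes were lower, 1 to 2 partner genes were higher, and the medians were -3.48 to -3.08 for general and -3.07 to -2.70 for capillary genes.

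Relative to the reference, 16 genes fell more and 12 less. The counts were 8 and 19 with Cdh5 alone, 10 and 16 with Pecam1 alone, 10 and 13 with Tie1 alone, 31 and 1 with Esam alone, and 10 and 17 with Cdh5, Pecam1 and Tie1. With Esam alone the direction turned for Cd93 (-1.23), Cd34 (-0.17), Mmrn2 (-0.12), Ramp2 (-0.98), Rasip1 (-1.49), Cav2 (-1.47), Aplnr (-0.51), Emcn (-0.45), Gja5 (-1.01), Vcam1 (-0.23), Prox1 (-0.50) and Lmo2 (-1.35), and with Cdh5 alone for Tspan7 (0.027), by construction of a reference that fell less or more. With the replicate block, 12 fell more and 9 less, and the larger fall of Prx, Gja4, Reln and Mmrn1 (limma adjusted p = 0.0923, 0.0997, 0.0506 and 0.0618) and the smaller fall of Bmx, Vcam1 and Prox1 (0.0649, 0.315 and 0.111) no longer passed. Red cell genes lower numbered 0 with the block and 1 with voom. Alveolar type 2 markers higher numbered 3 with the block and 5 in the test against a 2-fold change. In both of these settings 0 macrophage and 0 type 1 markers were higher. Genes under about 1 CPM in tumours, such as Sele, Prox1 and Slc6a2, rest on few reads there.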
